A study of Mus musculus with 4 samples.

Results

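Long non-coding RNA (lncRNA) genes whose promoters were open in Ras-transformed mammary epithelial cells were examined in 4 lists of FAIRE-positive regions. In FAIRE-seq, fixed chromatin is sheared and the DNA not held by protein is recovered and sequenced, which maps accessible sites. The cells were EpRas, a single mouse mammary gland epithelial line that expresses active H-Ras, and all 4 groups therefore carried the oncogene. At day 4 the groups were siControl cells left untreated, siControl cells given 1 ng/ml of TGF-β, and TGF-β-treated cells transfected with siRNAs that target Etv4 and Etv5, genes of ETS factors, as siEtv4/5 set 1 or as set 2. Peaks of the 4 lists that overlapped by at least 1 bp were merged into 35796 regions, of which 35433 lay on autosomes. Regions counted as lncRNA promoters when an annotated transcription start site (TSS) was at most 2 kb from their middle and the nearest one was that of a lncRNA gene. That left 1362 regions, 3.84% of the autosomal ones, at 1203 genes, or 12.8% of the 9421 lncRNA genes annotated on autosomes. In 401 of them a protein-coding TSS also lay within 2 kb, so these are shared promoters, and 961 were lncRNA promoters alone.

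Transcripts called lncRNAs are longer than small RNAs and encode no known protein. Some act in the nucleus on nearby genes or on nuclear bodies, some serve mainly as hosts from whose introns small nucleolar RNAs (snoRNAs) or microRNAs are cut, and many have no known role. Their start sites fall into different kinds of place: some lie back to back with a protein-coding gene in a CpG island, and others lie in CpG-poor DNA that resembles enhancers. AP-1 factors (Jun and Fos dimers) bind mainly in CpG-poor enhancers, while ETS factors, NF-Y and Sp proteins bind many CpG island promoters.

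Each group held 1 list, so no spread between replicates could be measured, no difference below was tested, and the comparisons are between libraries. Fold enrichment is the authors' ratio of the signal at a summit to the local background. The number of fragments at a summit was recovered from it, and intervals cover counting error only. The study describes 2 biological replicates, and whether a list pools them is not given in the sources used here. In bulk cells a site open in fewer cells and a site less open in each cell cannot be told apart. Estimated depth ran from 15.3 to 20.7 M reads, yet the deepest library, siEtv4/5 set 2, gave the shortest list (14925 peaks against 22247 to 28754 in the others), so fewer calls with set 2 touch every count below. The promoters of the siRNA targets were called throughout, Etv4 at fold enrichments of 9.60, 12.8, 10.8 and 8.39 and Etv5 at 7.87, 9.12, 9.44 and 8.31 in the order untreated, TGF-β, set 1, set 2, which does not check the knockdown of their mRNA. Of 6 markers of mammary luminal epithelium all had a promoter region in at least 1 library, of 3 basal markers only Krt14 did, and of 3 blood markers none did. Of 4 mesenchymal markers 3 had one, as did Pecam1 of 2 endothelial markers, called with siControl and TGF-β only. Per library, 5, 4, 4 and 2 of the luminal markers were called in the order untreated, TGF-β, set 1, set 2. In the same order 1, 2, 2 and 3 of the mesenchymal markers were called, and 1 basal marker was called in each.

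Some of these regions are shown first, as 300 bases centred on the region, read from the GRCm38 genome (the assembly also named mm10) on the strand of the lncRNA gene. The first pair stands for the promoters of snoRNA hosts, which were CpG-rich and open in most libraries. The window of Snhg15 (ENSMUSG00000085156), chr11:6528703-6529002 on the minus strand, lies upstream of the gene with its TSS at base 257, and the capitals mark a cyclic AMP response element (TGACGTCA) and a GC box (GGGCGG). The window of Snhg20 (ENSMUSG00000086859), chr11:117076602-117076901 on the plus strand, has its TSS at base 187, and the capitals mark the ETS letters CCGGAAGT, which end at the base before that TSS. These letters are not typical of the hosts, since of the 12 snoRNA hosts with a region only Snhg20 held them.
Snhg15: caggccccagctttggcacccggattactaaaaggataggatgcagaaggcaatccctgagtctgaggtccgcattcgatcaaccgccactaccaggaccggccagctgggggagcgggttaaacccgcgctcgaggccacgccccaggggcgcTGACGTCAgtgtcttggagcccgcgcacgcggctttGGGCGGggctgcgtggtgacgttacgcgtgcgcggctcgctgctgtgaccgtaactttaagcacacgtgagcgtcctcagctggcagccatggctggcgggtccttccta
Snhg20: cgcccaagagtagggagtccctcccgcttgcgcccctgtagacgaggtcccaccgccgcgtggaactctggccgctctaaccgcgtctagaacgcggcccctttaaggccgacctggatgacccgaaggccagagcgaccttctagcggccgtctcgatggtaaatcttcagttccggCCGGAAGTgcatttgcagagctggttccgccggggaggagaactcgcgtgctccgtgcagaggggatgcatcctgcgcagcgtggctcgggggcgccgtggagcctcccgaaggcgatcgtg

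Kcnq1ot1 (ENSMUSG00000101609) is the antisense RNA that silences genes of an imprinted cluster in cis. Its window, chr7:143296499-143296798 on the minus strand, lies in an intron of Kcnq1 with the TSS at base 250, and the capitals mark 3 CCAAT boxes, the letters NF-Y binds.
Kcnq1ot1: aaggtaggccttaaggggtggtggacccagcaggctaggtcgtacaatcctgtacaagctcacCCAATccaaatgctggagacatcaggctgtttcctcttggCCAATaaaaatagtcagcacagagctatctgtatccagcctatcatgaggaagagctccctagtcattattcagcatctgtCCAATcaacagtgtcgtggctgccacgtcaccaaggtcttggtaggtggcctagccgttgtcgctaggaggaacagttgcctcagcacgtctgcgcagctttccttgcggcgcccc

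The next windows carry the AP-1 letters TGANTCA, marked in capitals, and were chosen because promoters with AP-1 letters were seldom called in the untreated library alone, as described below. That of Gm12542 (ENSMUSG00000073843), chr4:59895296-59895595 on the minus strand, lies upstream of its gene in an intron of Snx30 and had the highest ratio of the siControl library with TGF-β to the untreated one. That of Gm36696 (ENSMUSG00000108427), chr7:72110738-72111037 on the plus strand, begins just before the TSS at base 24 and lies in an intron of Mctp2. It was called with siControl and TGF-β only. That of 4930520M14Rik (ENSMUSG00000106127), chr5:139215280-139215579 on the minus strand, lies past the end of this short gene in an intron of Sun1, and had the highest median fold enrichment of the AP-1 windows called in all 4 libraries. That of B230206H07Rik (ENSMUSG00000086844), chr7:141363422-141363721 on the minus strand, lies in an intron of its own gene and was called in the untreated library only.
Gm12542: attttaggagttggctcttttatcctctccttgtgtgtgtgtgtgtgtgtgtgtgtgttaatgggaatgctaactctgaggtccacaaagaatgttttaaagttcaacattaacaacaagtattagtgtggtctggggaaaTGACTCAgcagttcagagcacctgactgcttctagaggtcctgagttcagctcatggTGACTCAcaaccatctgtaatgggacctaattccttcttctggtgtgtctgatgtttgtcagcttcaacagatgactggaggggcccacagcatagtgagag
Gm36696: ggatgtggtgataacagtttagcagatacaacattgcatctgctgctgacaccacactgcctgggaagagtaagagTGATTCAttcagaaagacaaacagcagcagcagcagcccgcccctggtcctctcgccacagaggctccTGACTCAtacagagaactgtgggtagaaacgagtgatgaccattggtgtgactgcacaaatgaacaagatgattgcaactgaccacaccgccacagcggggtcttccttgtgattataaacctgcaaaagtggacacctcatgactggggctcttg
4930520M14Rik: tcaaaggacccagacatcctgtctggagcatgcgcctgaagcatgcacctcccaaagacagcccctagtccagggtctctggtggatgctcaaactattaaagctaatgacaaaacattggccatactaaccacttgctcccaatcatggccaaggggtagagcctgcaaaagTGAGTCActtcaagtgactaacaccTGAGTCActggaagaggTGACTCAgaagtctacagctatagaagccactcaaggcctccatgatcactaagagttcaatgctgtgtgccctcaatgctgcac
B230206H07Rik: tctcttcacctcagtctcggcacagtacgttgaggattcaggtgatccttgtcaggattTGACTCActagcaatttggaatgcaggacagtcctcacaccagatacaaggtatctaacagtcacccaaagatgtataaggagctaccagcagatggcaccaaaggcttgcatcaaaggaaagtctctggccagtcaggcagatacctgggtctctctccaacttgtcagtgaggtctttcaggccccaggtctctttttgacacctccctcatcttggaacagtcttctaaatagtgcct

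By annotated type, 702 of the regions belonged to lincRNAs, 388 to antisense RNAs, 177 to processed transcripts, 61 to bidirectional promoter lncRNAs, 33 to sense intronic RNAs and 1 to a sense overlapping RNA. A coding TSS was near in 96.7% of the regions of bidirectional promoter lncRNAs, 44.1% of those of processed transcripts and 41.0% of those of antisense RNAs, against 14.8% of those of lincRNAs. Most genes had 1 region and 140 had 2 or more, up to 4 at 2310001H17Rik and at 4732471J01Rik. The distance limit cut through a continuous range: 25 regions lay 1.9 to 2.0 kb from the TSS and 27 lay 2.0 to 2.1 kb from the TSS of a lncRNA gene, and the median of their highest fold enrichment was 8.81 on both sides.

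Shared promoters sat on the start site, and lncRNA promoters alone were spread around it. The strongest summit lay within 250 bp of the TSS in 293 of 401 shared regions (73.1%, 95% Wilson interval 68.5 to 77.2) and in 73.5% of 9285 protein-coding promoters, but in 338 of 961 regions alone (35.2%, 32.2 to 38.2). Among summits within 250 bp, 77.2% of those alone, 74.1% of those shared and 80.6% of those of coding genes were on the upstream side. Of the 961 summits alone, 501 lay outside the lncRNA gene on its 5′ side, 283 in one of its introns and 157 in an exon, while 255 lay in the body of a protein-coding gene, nearly all of them in introns. Of the shared promoters, 308 (76.8%) were divergent, with the coding gene transcribed away from the lncRNA and a median of 150 bp between the start sites. A further 84 overlapped head to head with the coding gene and 9 ran on its strand. Divergent promoters were called in all 4 libraries in 49.7% (44.1 to 55.2) of cases and overlapping ones in 33.3% (24.2 to 44.0).

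**Figure D1:**
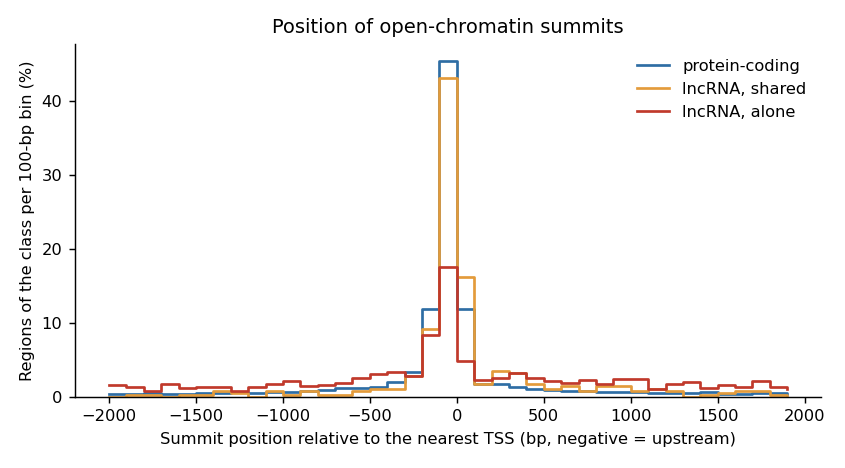
Position of the strongest summit relative to the nearest TSS, in bp with upstream as negative, as the percent of each class per 100-bp bin. Shared lncRNA promoters and protein-coding promoters peak just upstream of the TSS, where lncRNA promoters alone have a lower peak and a flat remainder that reaches to 2 kb on both sides.

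The same split showed in the sequence. Shared promoters read like protein-coding ones, and lncRNA promoters alone stood between these and the regions beyond 2 kb of any TSS. The ratio of observed to expected CpG was 0.6 or more (CpG-rich) in 75.3% (70.9 to 79.3) of shared promoters and 70.7% of coding promoters, in 18.4% (16.1 to 21.0) of those alone and in 3.13% of distal regions. AP-1 letters (TGANTCA, both strands) were present in the 300-bp window of 400 promoters alone, or 41.6% (38.5 to 44.8). They were in 10.2% (7.63 to 13.6) of shared promoters, 12.2% of coding promoters and 52.5% of the 23844 distal regions. The order was opposite for the GC box (GGGCGG), found in 20.9% of promoters alone, 65.3% of shared, 61.6% of coding and 7.88% of distal windows. ETS letters (CCGGAAGT) were in 2.19% (1.43 to 3.32) of promoters alone and 9.48% (6.98 to 12.7) of shared ones, beside 9.16% of coding and 0.579% of distal windows. CCAAT was common everywhere, in 35.5% of promoters alone, 47.4% of shared, 43.8% of coding and 32.8% of distal windows, and the cyclic AMP response element was rare, in 1.87%, 4.49%, 4.02% and 0.583%. A match shows the letters, not binding.

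Distance from the TSS ordered the promoters alone. Of the 338 with a summit within 250 bp, 30.5% (25.8 to 35.6) were CpG-rich and 34.3% (29.5 to 39.5) held AP-1 letters. Of the 282 with a summit beyond 1000 bp, 11.7% (8.46 to 16.0) were CpG-rich and 46.5% (40.7 to 52.3) held AP-1 letters. Regions of sense intronic RNAs, which start inside introns of other genes, held AP-1 letters in 54.5% of 33 cases, and those of bidirectional promoter lncRNAs in 9.84% of 61.

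**Figure D2:**
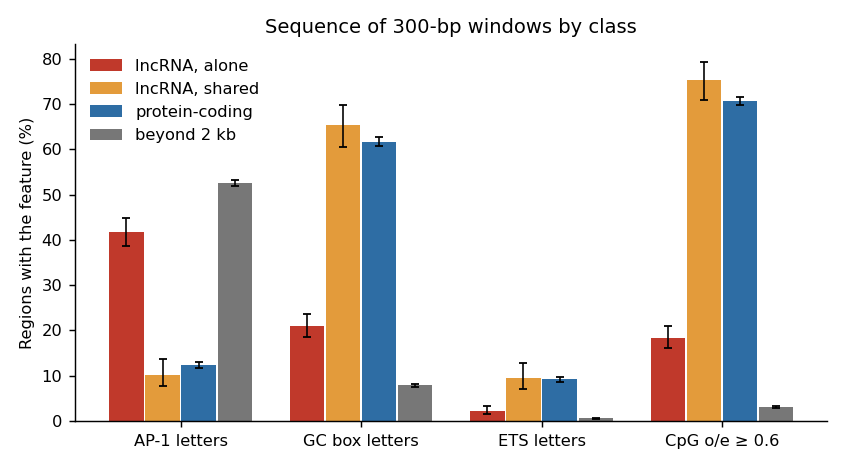
Percent of windows of 300 bp that hold the AP-1, GC box or ETS letters or have a ratio of observed to expected CpG of at least 0.6, by class. Bars are shares and lines are 95% Wilson intervals. The bars of lncRNA promoters alone stand between those of protein-coding promoters and of regions beyond 2 kb, while shared lncRNA promoters stand beside the protein-coding ones.

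In every library the median promoter alone was weaker than the median coding promoter and slightly below the median distal region. Among regions called in a library, the median fold enrichment of promoters alone was 7.82, 8.20, 7.61 and 6.92 in the order untreated, TGF-β, set 1, set 2. It was 8.89, 8.89, 8.20 and 7.40 for shared promoters and 8.81, 9.21, 8.49 and 7.56 for coding promoters. Distal regions had 7.856, 8.254, 7.68 and 7.005, so the low median was not particular to lncRNA genes. Among CpG-poor regions, promoters alone had 7.809 untreated and 8.118 with siControl and TGF-β, beside 8.006 and 8.277 for coding promoters. Among CpG-rich regions, promoters alone had 8.237 and 8.621 in the same order, beside 9.108 and 9.568 for coding promoters. The coding median with TGF-β was exceeded by 236 of 761 promoters alone, or 31.0%. At the median summit of a promoter alone there were 21 to 23 fragments per library, where 10 to 12 fragments were the fewest that could be called over the lowest background, so many calls lie near the limit of detection.

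The 8 lncRNA promoters alone with the highest median fold enrichment among those called in all 4 libraries were a mixed set. The highest was at AC147251.1, a lincRNA of no known role, with fold enrichments of 21.7, 19.5, 20.9 and 24.9 in the order untreated, TGF-β, set 1, set 2, highest with set 2 (centred log2 ratio 0.74 to siControl with TGF-β) on 49, 49, 56 and 67 fragments. 4930520M14Rik followed with 13.9, 17.1, 13.0 and 10.2, highest with siControl and TGF-β. Rab10os had 13.3, 12.1, 12.3 and 11.1, and 1810032O08Rik had 11.6, 13.9, 13.8 and 8.47. Gm26863, 9530082P21Rik, BC002059 and Gm15889 completed the group, with values from 8.20 to 15.1, and Gm26863, like 4930520M14Rik, held AP-1 letters. In 6 of these 8 the summit lay within 250 bp of the TSS.

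Across the 4 libraries, 281 of 961 promoters alone were called in all of them (29.2%, 26.4 to 32.2), against 29.7% of all autosomal regions. The share was 45.6% (40.8 to 50.5) for shared promoters, 46.3% for coding promoters and 23.2% for distal regions. Only in the siControl library with TGF-β were 139 promoters alone (14.5%) and 34 shared ones (8.48%) called, beside 16.0% of all autosomal regions. The missing call was in that library alone at 6 promoters alone and 5 shared ones, where the share over all regions was 0.802%. Calls in the untreated library only were made at 88 promoters alone (9.16%) and 23 shared ones (5.74%), with 7.70% over all regions.

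Of a list of lncRNAs with known roles, 76 were annotated as autosomal lncRNA genes and 25 of these had a promoter region. Hosts of snoRNAs led: 12 of 16 had one, all 12 were CpG-rich, all 12 summits lay within 250 bp of the TSS and none of the windows held AP-1 letters. In the order untreated, TGF-β, set 1, set 2, 11, 12, 9 and 9 of them were called, and 8 were called in all 4. Snhg15 had fold enrichments of 10.7, 13.0, 8.02 and 9.53, highest with siControl and TGF-β, and per depth its fragments were 0.520 (95% exact interval 0.290 to 0.910) of that library with set 1 and 0.560 (0.329 to 0.941) with set 2. Such ratios are not centred, and the median region was 0.24 lower in log2 per depth with set 1 and 0.67 lower with set 2. The centred log2 ratios of Snhg15 were -0.54 and -0.07. Snhg9, whose start lies back to back with the ribosomal protein gene Rps2, had 9.95, 10.6, 12.6 and 8.25, highest with set 1. Snhg17 had 10.8, 11.5, 11.6 and 7.46, and was lowest with set 2 (centred log2 ratio -0.25).

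Other snoRNA hosts varied more in whether they were called. Gas5, a host that is known to be induced by growth arrest, had 9.42 and 8.29 without and with TGF-β and was called with neither siRNA set. Snhg20, shown above with its ETS letters, had 10.0 and 8.59 without and with TGF-β and 6.44 with set 2, and was not called with set 1. Zfas1 was called with TGF-β at 6.39 and with set 1 at 7.10, and a region within 2 kb that was nearest to Gm27494 was called in all 4 libraries at 8.36, 8.32, 6.25 and 5.79. Epb41l4aos was called at 6.58 and 6.79 in the siControl libraries. A region was absent for Snhg14 and Snhg18, while at Snhg1 and Snhg3 a region within 2 kb was nearest to another gene, Slc3a2 and Snora73a.

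Hosts of microRNAs had a promoter region in 3 of 11 cases. Mir22hg, host of miR-22, was called in all 4 libraries at 7.63, 7.12, 6.48 and 4.65. It was lowest with set 2, where its centred log2 ratio to siControl with TGF-β was -0.24. Dleu2, host of miR-15a and miR-16-1, was called at 7.32 without TGF-β and 7.40 with set 1, while a region within 2 kb that was nearest to Gm37472 was called with siControl and TGF-β at 6.73. Dnm3os, the antisense host of miR-199a and miR-214 in an intron of Dnm3, was called only in 2 libraries with TGF-β, at 9.48 with siControl and 6.73 with set 1, with a summit 1617 bp upstream of the TSS and AP-1 letters in the window. A weaker region of Mir22hg, 916 bp upstream of its TSS and with AP-1 letters, was called with siControl and TGF-β only, at 5.41, as was a region nearest to Mir22 at 5.02. Mir17hg, Mir99ahg, Mir124a-1hg, Mir142hg, Mir155hg, Mir9-3hg, Mir670hg and Carmn had no region. Of the myocardial infarction associated transcripts Mirt1 and Mirt2, only Mirt1 had a region, called in all 4 libraries at 9.51, 9.05, 9.46 and 6.70. Mirt1 was lowest with set 2, but its centred log2 ratio there was -0.06, near the median of all regions.

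Of 9 imprinted lncRNAs 3 had a region, and each was called in every library but set 2. Of all autosomal regions called with siControl and TGF-β, 53.4% were not called with set 2. The listed Trp53cor1, Lncpint, Crnde and Lockd had the same pattern of calls. Kcnq1ot1 had 8.41 without TGF-β, 9.27 with siControl and TGF-β and 5.81 with set 1. Airn, which silences Igf2r in cis, had 6.74, 9.12 and 6.47, with the summit 884 bp upstream of the TSS in an intron of Igf2r. Rian had 8.56, 10.4 and 8.82 at a site inside the gene, and like Airn it held AP-1 letters. All 3 were highest with siControl and TGF-β, but on 12 to 29 fragments the intervals of each ratio spanned 1. No region was found for H19, Meg3, Mirg, Nespas, Peg13 or Snhg14.

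Among lncRNAs of the p53 pathway and the cell cycle 3 of 8 had a region. Trp53cor1 (lincRNA-p21), a target of p53 beside Cdkn1a, had 9.27, 8.12 and 5.78 in the untreated, TGF-β and set 1 libraries. Lncpint, another p53 target, had 6.69, 6.68 and 6.42 in the same libraries. A weaker region of Lncpint was called with siControl and TGF-β only, at 5.43. 2610307P16Rik was called at 6.70 in untreated cells only. Tug1 and Rmrp had a region within 2 kb that was nearest to a coding gene, Morc2a and Ccdc107, while Pvt1, Gm12606 and 2900097C17Rik had none. Of 3 lncRNAs of nuclear bodies, Malat1, a speckle RNA, was called in all 4 libraries at 6.46, 5.82, 6.11 and 5.48, within a narrow range. Neat1, the scaffold of paraspeckles, had a region within 2 kb that was nearest to Frmd8os, and Miat had none.

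None of 10 Hox cluster lncRNAs had a region of its own (Hotair, Hotairm1, Hottip, Hoxa11os, Hoxaas2, Hoxaas3, Hoxb3os, Hoxb5os, Haglr and Hoxd3os1). Of 18 lncRNAs of TGF-β responses and development, Crnde and Lockd had a region, at 7.65, 9.18 and 8.17 and at 5.60, 5.84 and 5.96 in the untreated, TGF-β and set 1 libraries. Neither was called with set 2. No region of their own was found for Fendrr, Foxd2os, Sox2ot, Lncenc1, Rmst, Evx1os, Pantr1, Pantr2, Tbx3os1, Six3os1, Zeb2os, Dlx6os1, Dlx1as, Emx2os, Wt1os and Zfhx2os. Near Zeb2os, antisense to the EMT regulator Zeb2, a region nearest to Zeb2 was called at 9.60 with siControl and TGF-β and 6.67 with set 2. A region near Dlx1as that was nearest to Dlx1 was called at 15.25, 11.6, 9.40 and 8.33, highest in untreated cells, and one near Zfhx2os that was nearest to Gm20687 was called with set 1 only, at 8.94. Over the 25 listed genes, 23, 23, 21 and 12 were called in the order untreated, TGF-β, set 1, set 2, where of all 1362 lncRNA promoters 930, 1099, 882 and 623 were.

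**Figure D3:**
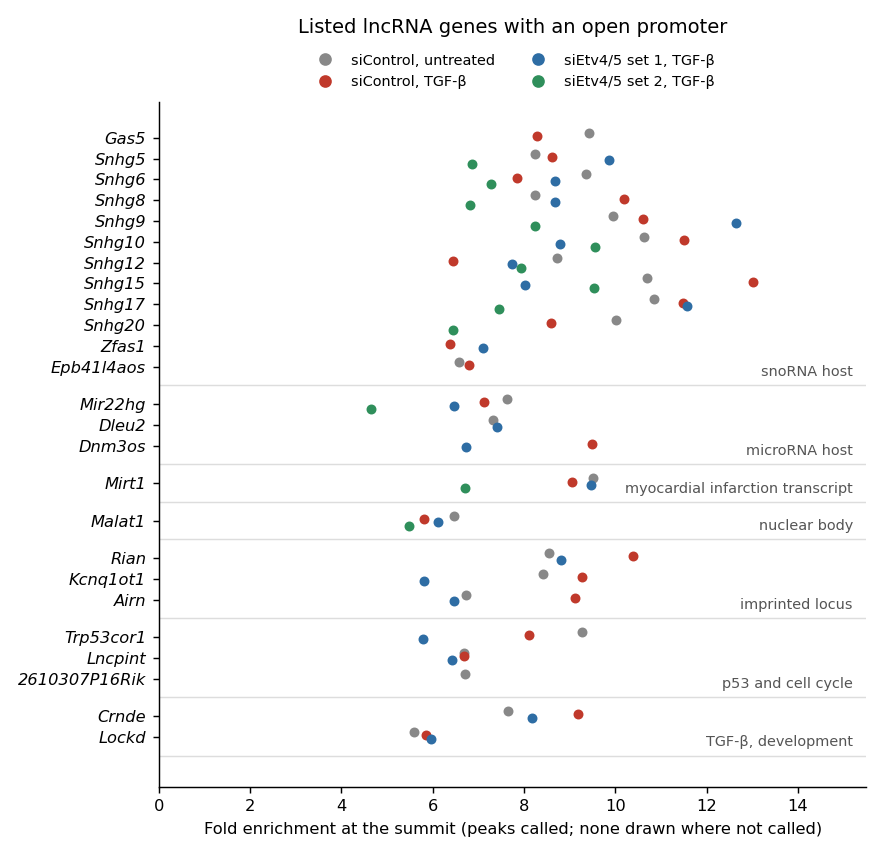
Fold enrichment at the summit of the strongest promoter region of each of the 25 listed lncRNA genes, with 1 point per library in which a peak was called and no point where none was. Of the 12 snoRNA hosts 8 have 4 points. Only 12 of the 25 genes have a point of siEtv4/5 set 2, and the imprinted lncRNAs are among those that lack it.

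The first comparison asks how open chromatin in siControl cells differed with and without TGF-β. Of 761 promoters alone called with TGF-β, 263 (34.6%, 31.3 to 38.01) were not called without it, against 36.8% of all autosomal regions. Shared promoters had a lower share, 68 of 338 (20.1%, 16.2 to 24.7), near the 18.8% of coding promoters, and distal regions a higher one, 44.7%. In the other direction 122 of 620 promoters alone (19.7%, 16.7 to 22.99) and 40 of 310 shared ones (12.9%, 9.62 to 17.1) were called without TGF-β only, where the share over all regions was 18.3%. With every list cut to its 14925 most significant peaks, 37.1% of promoters alone were called with TGF-β only and 38.5% without it only, beside 34.4% and 34.3% of all regions. Shared promoters had 18.8% and 26.1%, and coding promoters 18.04% and 24.6%. Lists of equal length make the shares over all regions nearly equal by construction. They therefore cannot show whether more promoters were open with TGF-β.

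Among promoters alone, those with AP-1 letters were seldom called in the untreated library and not with TGF-β. CpG-poor promoters alone with AP-1 letters were called without TGF-β only in 18 of 219 cases (8.22%, 5.26 to 12.6). Without these letters the count was 82 of 260 (31.5%, 26.2 to 37.4). Calls with TGF-β only made up the same share in both, 125 of 326 (38.3%) and 112 of 290 (38.6%). Promoters with the letters were called in 59.0% of 371 cases without TGF-β and 87.9% with it, and those lacking them in 63.0% of 413 and 70.2%. A region counted here when any of the 4 lists called it. The list of siControl with TGF-β was the longest, at 28754 peaks against 22247 untreated. A higher share called with TGF-β is therefore partly built in for both groups. The median fold enrichment without TGF-β was 7.81 with the letters and 7.82 lacking them, on medians of 22 and 20 fragments. With siControl and TGF-β it was 8.205 and 8.047, on 25 and 22 fragments. In all 4 libraries, 34.2% of those with the letters and 20.8% of those lacking them were called. Promoters with the letters were thus more often called throughout, and whether this accounts for their fewer calls in 1 library was not tested. At equal list lengths the shares called without TGF-β only were 22.8% (16.6 to 30.5) and 55.0% (47.0 to 62.7). The difference was not particular to lncRNA genes, since distal CpG-poor regions had 10.8% with and 33.5% lacking the letters, and coding ones 12.2% and 21.8%. The intervals treat regions as independent and come from 1 library on each side.

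CpG-rich promoters alone, which include Snhg15 and Snhg20, were less often called with TGF-β only: 26 of 145 (17.9%, 12.5 to 24.98) were called with it only, beside 237 of 616 CpG-poor ones (38.5%, 34.7 to 42.4). Calls without it only were 15.6% (10.5 to 22.5) and 20.9% (17.5 to 24.7), with overlapping intervals. Over all autosomal regions the shares were 36.8% with TGF-β only and 18.3% without it only. With TGF-β only, 18.8% of all coding promoters and 44.7% of distal regions were called, so the lower share is not shown to be particular to lncRNA genes.

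**Figure D4:**
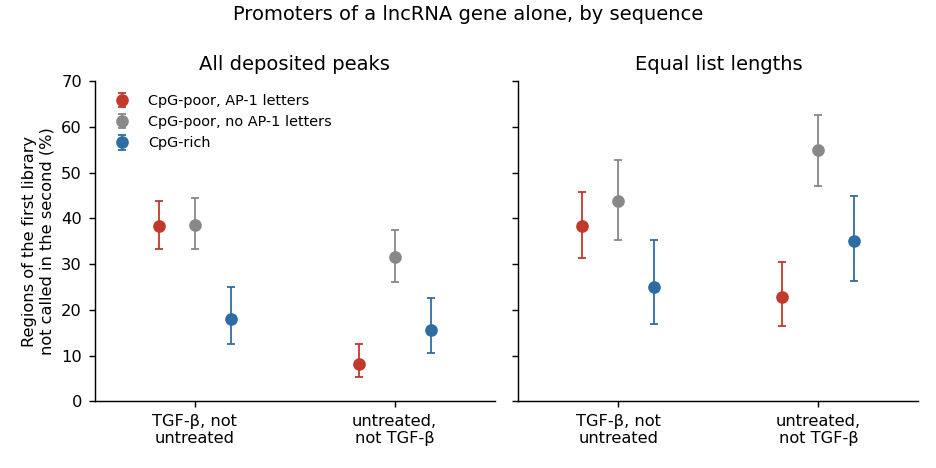
Percent of lncRNA promoters alone called in the first library of a pair and not in the second, for CpG-poor promoters with and without AP-1 letters and for CpG-rich ones. Points are shares with 95% Wilson intervals, with all deposited peaks on the left and with 14925 peaks per list on the right. Promoters with AP-1 letters lie lowest among those called without TGF-β only, at 8.22% and 22.8%, while the CpG-poor groups overlap among those called with TGF-β only.

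Where a promoter was called on both sides, levels were close. After centring on the median of all autosomal regions, which was 0.12 higher in log2 with TGF-β, the median log2 ratio was 0.01 over 498 promoters alone and -0.07 over 270 shared ones. Past 1.5-fold higher were 9 alone and 3 shared, 1.56% of the 768 together beside 2.44% of all regions. Past 1.5-fold lower were 10 and 10, 2.60% beside 2.45%, the first share below the background and the second near it. Without centring the split turned, with 33 higher and 9 lower (4.30% and 1.17%), as it did over all regions with 5.92% and 0.930%.

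Among the members far from that median, Gm12542 had the highest ratio with TGF-β. The members named here were chosen by these same ratios, so an interval that excludes 1 is not support for a difference. The fragment ratios are not centred. It had 11 fragments without TGF-β and 35, 25 and 23 with siControl, set 1 and set 2 under TGF-β, or fold enrichments of 5.20, 12.7, 9.58 and 9.01. The 3 libraries with TGF-β were all above the untreated one, whose 11 fragments lay near the lowest callable number of 10. Per depth the siControl ratio was 2.99 (95% exact interval 1.48 to 6.52). Gm14471, antisense inside Nup188 and with AP-1 letters, had 13, 33, 25 and 18 fragments in the same order, with a ratio of 2.38 (1.22 to 4.94). Gm26812 had 17, 33, 16 and 17, so only the siControl library with TGF-β was high, and its interval spanned 1 (0.987 to 3.49).

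The 3 lowest ratios with TGF-β, chosen in the same way, were at CpG-rich windows, and the 3 highest were at CpG-poor ones. Gm44734 had 37, 21, 25 and 17 fragments in the order untreated, TGF-β, set 1, set 2, with the untreated library highest and a ratio of 0.533 (0.297 to 0.935). Gm11491, back to back with Trim37, had 30 and 17 without and with TGF-β, was not called with set 1 and had 26 with set 2, with a TGF-β ratio of 0.532 (0.275 to 0.997). Gm49427, in an intron of the chemokine receptor gene Cx3cr1, had 29, 19 and 22 and was not called with set 2, with an interval that spanned 1 (0.326 to 1.14).

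Of promoters called on 1 side, those alone with the highest fold enrichment with TGF-β were Gm16183 at 11.9, D630033O11Rik at 11.8, Gm36696 at 11.6 and 4930597A21Rik at 11.1, on 23 to 30 fragments. Of these 4, the first 3 held AP-1 letters, and 4930597A21Rik was called in every library with TGF-β. Among shared ones AC132353.2, back to back with Dync2li1, was at 13.3 and 1500015A07Rik, back to back with Grpel2, at 11.1. In the untreated library the highest alone were B230206H07Rik at 13.7, Gm5165 at 11.9 (68.9% of its 36-base words occur once in the genome), Gm43129 at 11.2 and CT025671.1 at 10.9, and of these B230206H07Rik held AP-1 letters. Shared ones were Gm44987, back to back with Cog7 and with ETS letters, at 12.0, and Gm12500, back to back with Ampd2, at 9.85. With at least 25 fragments in the library that called them were 91 of the 331 regions called with TGF-β only and 17 of the 162 called without it only, beside 2139 of 10473 and 290 of 4025 among all autosomal regions.

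The other comparisons ask how TGF-β-treated cells with either siRNA set against Etv4 and Etv5 differed from siControl ones. All 3 comparisons use the same siControl list with TGF-β, so its calls count in each of them. Of the 761 promoters alone in it, 261 (34.3%, 31.0 to 37.7) were not called with set 1, beside 33.5% of all regions, and 405 (53.2%, 49.7 to 56.7) were not called with set 2, beside 53.4%. Shared promoters were retained more often, with 71 of 338 (21.0%, 17 to 25.7) and 132 of 338 (39.1%, 34 to 44.4) not called, near the 22.5% and 38.6% of coding promoters. New calls with set 1 were made at 83 of 583 promoters alone (14.2%, 11.6 to 17.3) and 32 of 299 shared ones (10.7%), where all regions had 15.1%. With set 2 they were made at 43 of 399 (10.8%, 8.10 to 14.2) and 18 of 224 (8.04%), where all regions had 10.2%. At equal list lengths the shares not called were 30.1% with set 1 and 31.2% with set 2 for promoters alone, beside 31.3% and 33.4% of all regions. The cut takes away the difference in list length between the sets by construction, so these shares cannot show whether the sets differed.

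**Figure D5:**
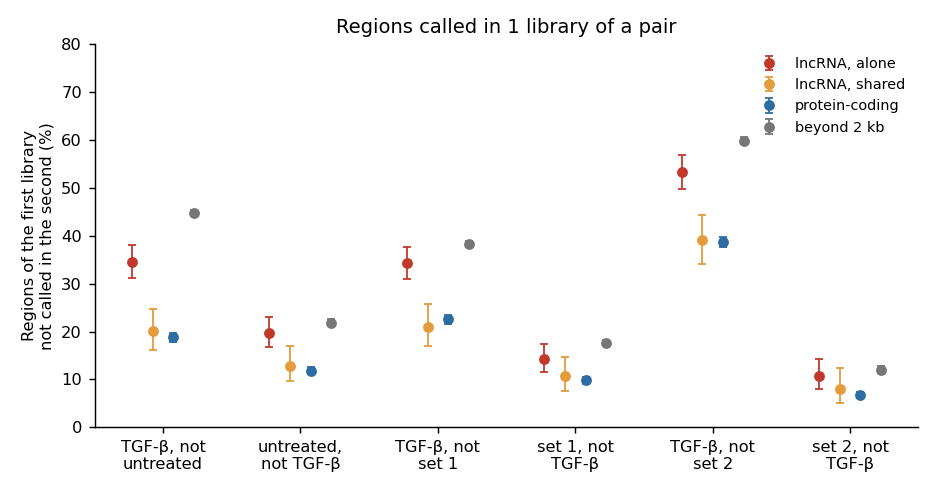
Percent of the regions called in the first library of a pair that were not called in the second, for 4 classes and both directions of each comparison, with 95% Wilson intervals that cover counting error only. In each pair lncRNA promoters alone lie between protein-coding promoters and regions beyond 2 kb, and shared lncRNA promoters lie beside the protein-coding ones. TGF-β on the axis means siControl with TGF-β.

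The CpG-poor promoters alone differed by AP-1 letters again. With set 1, 94 of 326 with the letters (28.8%, 24.2 to 33.98) and 122 of 290 lacking them (42.1%, 36.5 to 47.8) of those in the siControl list were not called. With set 2 the shares were 51.5% (46.1 to 56.9) and 58.6% (52.9 to 64.1), with overlapping intervals. At equal list lengths these intervals overlapped for both sets, at 26.5% and 37.2% for set 1 and 28.2% and 36.4% for set 2. Calls with an siRNA set and not with siControl were fewer with the letters, 9.02% (6.09 to 13.2) against 22.2% (17.2 to 28.2) for set 1 and 7.06% (4.08 to 11.9) against 17.8% (12.4 to 24.8) for set 2. This difference stood at equal list lengths, with 25.1% (19.2 to 32.2) against 42.9% (34.8 to 51.4) for set 1 and 28.2% (22.0 to 35.4) against 47.3% (39.3 to 55.3) for set 2. In all 3 pairs, which share the siControl list with TGF-β, the promoters lacking AP-1 letters were thus more often called in the other library alone. Of all autosomal regions, 33.5% with set 1 and 53.4% with set 2 were not called, and 15.1% and 10.2% were new calls (31.2% and 32.9% at equal list lengths). Coding and distal regions are not split by the letters here for the siRNA sets. The difference is therefore not shown to be particular to lncRNA genes. Over all lncRNA promoters ETS letters were too few for a share by comparison, with 21 windows alone and 38 shared.

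Levels at regions called on both sides did not stand apart from the background. The median of all autosomal regions was 0.16 lower in log2 with set 1 and 0.38 lower with set 2, and after centring the medians over lncRNA promoters were within 0.02 of 0 in both, alone and shared. With set 1, 10 of 767 were past 1.5-fold higher (1.30%, beside 2.11% of all regions) and 17 past 1.5-fold lower (2.22% beside 2.08%). With set 2, 20 of 562 were higher (3.56% beside 2.84%) and 9 lower (1.60% beside 2.57%). Without centring 0.521% were higher and 6.65% lower with set 1, near the 0.5502% and 6.602% of all regions, and 0% were higher and 21.9% lower with set 2, beside 0.0906% and 24.3% of all regions. Of the 501 members called with siControl and TGF-β and with both sets, none was past 1.5-fold higher with one set and past 1.5-fold lower with the other. Both ratios share the siControl library and few members were past the fold, so this does not show that the sets agreed. The 9 snoRNA hosts called on both sides had a centred median of 0.30 with set 1, 6 of them above 0, and of 0.02 with set 2, 5 above 0.

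The members with the lowest ratios were highest in the siControl library with TGF-β, which is how they were chosen. Gm26812, a lincRNA, was at 12.3 in that library and at 5.47, 5.72 and 5.71 in the untreated, set 1 and set 2 libraries, so those 3 were alike. Its centred log2 ratios were -0.94 with set 1 and -0.73 with set 2, and per depth the fragment ratios were 0.457 (0.235 to 0.853) and 0.406 (0.212 to 0.750). Gm26533, back to back with the RNA polymerase subunit gene Polr2d, had 24, 32, 16 and 16 fragments in the order untreated, TGF-β, set 1, set 2. Its fragment ratios were 0.471 (0.241 to 0.884) and 0.394 (0.202 to 0.739), and its centred log2 ratios were -0.76 and -0.76. Both siRNA libraries lay below both siControl libraries there. The fragment ratios of both genes are not centred, so they and their intervals include the lower median of all regions per depth with each set.

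Gm47096, back to back with the lipase gene Pnpla8, had 19, 35 and 14 fragments in the untreated, TGF-β and set 1 libraries and was not called with set 2. Its set 1 fragment ratio was 0.377 (0.187 to 0.718), not centred, and its centred log2 ratio was -0.98. Atad3aos, back to back with the mitochondrial ATPase gene Atad3a, had 25, 43, 25 and 21 fragments, highest with siControl and TGF-β. Its set 2 fragment ratio was 0.385 (0.217 to 0.663), not centred, and its centred log2 ratio was -0.79. Gm16638, back to back with Stard5, had 23, 30, 29 and 16, and was low with set 2 only (centred log2 ratio -0.76).

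The highest ratios, also the basis of choice here, were at other genes in the 2 sets. Gm49319, with AP-1 letters, had 20, 17, 36 and 22 fragments in the order untreated, TGF-β, set 1, set 2, with set 1 alone high and a ratio of 1.99 (1.09 to 3.79). Gm12264 and Gm15445 were highest with set 1 among the libraries with TGF-β, at 10.7 and 12.3, and their intervals spanned 1. With set 2 the highest centred ratios were at Gm11491, 1500002C15Rik and Gm13203, where the intervals of the fragment ratios, which are not centred, spanned 1 as well.

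Of promoters called in siControl cells with TGF-β and not with an siRNA set, the highest alone for set 1 were Gm12320 at 12.2, Gm36696 at 11.6, BB557941 at 11.6 and Gm48071 at 11.3. For set 2 they were AC110262.3 at 14.2, Gm45602 at 12.7, Gm33926 at 12.6 and Gm12320 at 12.2. Gm12320 was thus absent with both sets, and it was called in untreated cells at 7.33. Shared ones were F630042J09Rik and 4930445N08Rik for set 1, and Gm47096 and Gm45441 for set 2. Gm45441, back to back with the ribosome assembly gene Grwd1, carried ETS letters and had 14, 28 and 19 fragments in the untreated, TGF-β and set 1 libraries.

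The highest calls with an siRNA set and not with siControl had lower values than the siControl ones above. They came from fewer promoters alone, 83 with set 1 and 43 with set 2, against 261 and 405. The median fold enrichment of promoters alone was also lower in those libraries, at 7.61 and 6.92 against 8.20. With set 1 the highest alone were Gm20939 at 10.7 (68.2% of 36-base words unique), Gm36426 at 10.6, 4930447F24Rik at 10.3 and Gm14161 at 10.2, and all 4 had also been called in untreated cells. With set 2 they were Gm16155 at 8.97, Gm14161 at 8.40, Gm49607 at 8.20 and 4930478P22Rik at 7.98. Gm14161, 4930447F24Rik, Gm16155, Gm43837 and Gm29050 were called in every library but siControl with TGF-β, with fold enrichments from 6.27 to 10.3 on 17 to 27 fragments. Shared new calls were 5730420D15Rik, back to back with the cytokine signaling inhibitor Socs2, and Mtag2 (Ppfia3) with set 1, and Gm44987 and 4632404H12Rik (Ube2q1) with set 2.

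Promoters alone found only in the siControl library with TGF-β were led by Gm36696, with Gm15998 at 11.1, 8030442B05Rik at 10.6, Gm47591 at 10.1 and 4930556C24Rik at 9.91 on 23 to 30 fragments. Found only in the untreated library were B230206H07Rik, Gm43129, Gm11725 at 10.3, Gm27167 at 9.77 and 1700072G22Rik at 9.37 on 19 to 27 fragments. These counts stood against a lowest callable number of 11 fragments with TGF-β and 10 without.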

How the data were processed

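FAIRE-seq was done on EpRas cells in 4 groups with 1 deposited peak list each. The authors trimmed Ion Proton reads to 36 bp, aligned them to mm10 with bowtie2 per the study's methods (Bowtie in the submitters' processing notes) and called peaks with MACS2 (version 2.1.0 in those notes, another version in the methods) at q below 0.0001. Per the file headers and values, each deposited peak holds a score, a fold enrichment (the ratio of summit signal to local background), and a −log10 p-value and −log10 q-value. Depth and the fragments at each summit were solved from these deposited values with the caller's pseudocount of 1, its background window of 10 kb and a genome size of 1.87 Gb. All summits had a whole number of fragments that gave back the deposited −log10 p-value within 0.001. Lists held 14925 to 28754 peaks at estimated depths of 15.3 to 20.7 M reads.

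Peaks overlapping by 1 bp were merged across lists, and the nearest TSS was taken from GENCODE vM21 on mm10. Windows of 300 bp at the region's middle were read from RefSeq's GRCm38.p6 genome and searched on both strands for fixed letters, in promoters and in all other regions alike. Of the members, 3 had under 50% of 36-base words unique in the genome and were counted but not named for their values. Shares carry 95% Wilson intervals. Ratios of fragments per depth carry exact Clopper-Pearson intervals, and log2 ratios of fold enrichment were centred on the median of all autosomal regions. With 1 list per group no test was possible, and intervals cover counting error only. The calculations were tested on simulated data.

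The members, gene lists and letters were chosen with earlier results of these data known. The genes named were every gene of the list of known lncRNAs, the 8 promoters alone with the highest median fold enrichment called in all 4 lists, per comparison and direction the 4 alone and 2 shared with the highest fold enrichment called on 1 side and the 3 with the largest centred ratio past 1.5-fold (at least 20 fragments on 1 side), and up to 5 alone in each pattern of calls described. Alternatives were lincRNAs only, a 1-kb distance, equal list lengths, a q limit of 1e-06, a fold of 2, no centring, fragments per depth, a 200-bp window at the summit and regions called in all lists. Python 3.11.15, numpy 2.4.6, pandas 2.3.3, scipy 1.17.1, numba 0.67.0 and matplotlib 3.10.9 were used.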

Additional observations from a re-analysis of the deposited data

Results flagged for a closer look

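The X chromosome lay outside the autosomal rule. It held 10 lncRNA promoter regions, and 2 of them, at Ftx and Gm1720, were called in all 4 libraries. Ftx, a positive regulator of Xist, had fold enrichments of 8.43, 10.1, 7.75 and 6.30 in the order untreated, TGF-β, set 1, set 2. Gm1720 had 7.66, 9.66, 5.59 and 6.72, so both were highest with siControl and TGF-β.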

How the results depend on the processing

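No paired analysis was possible because each group has 1 list, and for the same reason no replicate could be left out. Over 12 settings, 129 alternative values were computed for the lncRNA promoters as a whole, and 85 stayed within the 95% interval of the reported share or, for the number of members, within 1.5 times it. The 1362 members were 992 with lists of equal length and 1046 within 1 kb of a TSS. A q limit of 1e-06, an overlap of at least 50% of the shorter peak, the mean over peaks and leaving out members of few unique 36-base words gave only such values. The cause of the other 44 was not tested.

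With lists of equal length, promoters alone were 67.0% of members and 30.3% of members were called in all 4 lists. Calls in untreated cells only were then 33.4%, those with set 1 only 28.8%, those with set 2 only 32.4%, and 29.5% were absent with set 2. Past the fold were 0.240% higher and 1.44% lower with TGF-β, 0.465% and 0.930% with set 1, and 1.905% higher with set 2, beside 0.718% and 0.646%, 0.558% and 0.774%, and 1.23% of all regions. With lincRNA genes only there were 702 members, of which 85.2% were alone, 30.3% were called in all 4, 33.4% were absent with set 1 and 52.0% absent with set 2. Within 1 kb of a TSS, 36.8% were called in all 4, 26.3% with TGF-β only, and 27.8% of promoters alone exceeded the coding median. At a fold of 2, 0.260% were higher and 0% lower with TGF-β, 0.130% and 0% with set 1, and 0% and 0% with set 2. Without centring the shares were 4.30% and 1.17% with TGF-β, 0.521% and 6.65% with set 1, and 0% and 21.9% with set 2, beside 5.92% and 0.930%, 0.5502% and 6.602%, and 0.0906% and 24.3% of all regions. From fragments per depth they were 3.52% and 5.47%, 3.00% and 4.04%, and 6.58% and 3.38%, beside 5.05% and 4.85%, 3.79% and 3.74%, and 5.52% and 4.91% of all regions, with 39.4% above the coding median. In 200 bp at the summit 38.5% of promoters alone held AP-1 letters. Among members called in all 4 lists the shares alone were 47.3% with AP-1 letters, 3.92% with ETS letters and 24.2% CpG-rich, and the shares of shared promoters were 6.01% with AP-1 letters and 88.0% CpG-rich.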
